A study of Mus musculus with 20 samples.

Results

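Id1, Id2, Id3, Id4, Atoh8, Smad6, Smad9, Msx1 and Msx2 are genes widely used as transcriptional readouts of bone morphogenetic protein (BMP) signalling. They were taken by name, with earlier results of these data known, as 9 of the 55414 genes in a table of RNA-seq read counts from mouse cardiac fibroblasts. All 9 were also among the 15624 genes that passed the filter on low counts; Msx2 did so with 7 libraries at the cutoff, 5 of them from cultures with TGFB and 2 from cultures without it. The primary fibroblasts came from hearts of Hyal2 fl/fl mice, in which loxP sites flank part of the Hyal2 gene for a hyaluronidase, and they were infected at the stage the labels call P2 with an adenovirus for 5 h after 24 h of serum starvation. The genotype label of every library reads wild type C57BL/6J, although the treatment text names the floxed mice. There were 5 groups of 4 libraries. Cre_TGFB cultures received Cre virus, which removes exon 2 of Hyal2, with transforming growth factor beta (TGFB). GFP_TGFB cultures received the GFP control virus with TGFB. Hyal2 cultures received a virus that overexpresses Hyal2, Cre cultures the Cre virus and GFP cultures the GFP virus, all 3 without TGFB. Growth factor was then added at 20 ng/mL, and the cells were collected 48 h later. The protocol can be read as giving bFGF to the cultures without TGFB, so adding TGFB and leaving out bFGF cannot be told apart. The 4 replicate numbers recur in every group, and the library names in the labels share a prefix for each number, so they are taken here as 4 cell isolates, isolates 1 and 2 female and isolates 3 and 4 male. The age of the mice is not stated in the labels.

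BMP ligands bind receptor kinases that phosphorylate SMAD1, SMAD5 and SMAD9, which enter the nucleus with SMAD4 and switch on target genes. TGF-beta and activins act mainly through SMAD2 and SMAD3, and share SMAD4 with BMPs. The ID proteins are helix-loop-helix factors without a DNA-binding region that hold E proteins away from DNA. ATOH8 is a basic helix-loop-helix factor, SMAD6 is an inhibitory SMAD that limits BMP signalling, SMAD9 is itself a receptor-regulated SMAD, and MSX1 and MSX2 are homeobox factors of developing skeleton, skin and heart.

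Libraries held 38.6 to 104.8 M counts. Values are given as CPM, counts relative to library size with TMM scaling, and a floor of 3 counts corresponded to 0.0285 to 0.0813 CPM, which covers counting error only. Where 4 values of a group are listed, they are those of isolates 1, 2, 3 and 4 in that order. Hyal2 served to check the virus labels. It had 9.14, 7.48, 7.70 and 5.37 CPM in Cre_TGFB cultures and 41.1, 39.2, 33.4 and 33.7 CPM in GFP_TGFB cultures. It had 1210, 706, 399 and 1420 CPM in Hyal2 cultures, 12.3, 8.34, 13.5 and 7.62 CPM in Cre cultures and 44.5, 43.0, 40.7 and 36.6 CPM in GFP cultures. Every library thus followed its virus label. Under the same virus, cultures with and without TGFB overlapped in Hyal2, so it does not check the labels of TGFB, sex or isolate. The summed level of 7 fibroblast markers, among them collagen I, decorin and vimentin, ranged from 23800 to 38200 CPM, most of it from the 2 collagen I genes. Summed cardiomyocyte markers were at 1.22 to 4.59 CPM and summed mesothelial markers at 0.886 to 4.56 CPM, with Myh6, Nppa or Muc16 at 0 in all 4 libraries of several groups.

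The promoters of 8 of the 9 genes were found in the RefSeq table of the build GRCm38.p6, which is older than the build used for the counts; Id1 was not in it. Each window holds 250 bases before the transcription start and 50 after it. It was searched for GGCGCC, a GC-rich element that BMP-activated SMADs bind, for the SMAD box CAGAC on both strands, and for the palindrome GTCTAGAC, which SMAD3 and SMAD4 bind and which overlapped neither of the others in these windows. The windows of Id2, Id3 and Smad6, which hold a different element each, and that of Atoh8, of the 9 the gene with the largest TGFB change, are shown 5′ to 3′ with the element in capitals (GTCTG where CAGAC is on the other strand). Id2 lies at chr12:25096043-25096342 on the minus strand, Id3 at chr4:136143572-136143871 on the plus strand, Smad6 at chr9:64022010-64022309 on the minus strand and Atoh8 at chr6:72235528-72235827 on the minus strand.
Id2: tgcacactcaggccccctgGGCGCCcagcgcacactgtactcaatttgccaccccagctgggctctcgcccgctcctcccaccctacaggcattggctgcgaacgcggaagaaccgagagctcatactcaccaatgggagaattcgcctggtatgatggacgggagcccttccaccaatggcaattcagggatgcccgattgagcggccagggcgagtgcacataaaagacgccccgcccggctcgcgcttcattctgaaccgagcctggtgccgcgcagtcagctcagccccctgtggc
Id3: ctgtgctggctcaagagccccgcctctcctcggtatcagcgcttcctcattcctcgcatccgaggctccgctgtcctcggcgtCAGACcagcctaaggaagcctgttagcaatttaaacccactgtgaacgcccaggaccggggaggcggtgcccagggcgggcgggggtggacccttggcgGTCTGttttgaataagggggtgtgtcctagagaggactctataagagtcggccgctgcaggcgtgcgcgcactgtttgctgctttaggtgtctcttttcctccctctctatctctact
Smad6: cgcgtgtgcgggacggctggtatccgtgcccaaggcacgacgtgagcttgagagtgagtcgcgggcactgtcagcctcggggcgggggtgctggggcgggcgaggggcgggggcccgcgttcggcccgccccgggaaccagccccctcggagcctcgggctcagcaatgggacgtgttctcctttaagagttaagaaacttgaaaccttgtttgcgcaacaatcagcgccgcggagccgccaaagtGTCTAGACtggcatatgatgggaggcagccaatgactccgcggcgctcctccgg
Atoh8: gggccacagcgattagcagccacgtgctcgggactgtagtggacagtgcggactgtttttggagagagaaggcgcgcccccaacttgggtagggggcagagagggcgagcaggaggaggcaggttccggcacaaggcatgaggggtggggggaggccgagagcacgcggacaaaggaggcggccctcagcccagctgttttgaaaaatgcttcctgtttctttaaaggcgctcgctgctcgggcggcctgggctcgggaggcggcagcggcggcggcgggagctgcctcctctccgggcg
GGCGCC stood in 3 of the 8 windows, 231 bases before the start of Id2, 148 before that of Id4 and 51 before that of Smad9. Of all 32544 promoter windows of this length, 11.9% held it. CAGAC stood in 1 of the 8, at 2 places in Id3, against 49.5% of all windows. GTCTAGAC stood in Smad6, across the start, against 0.215% of all windows. None of the 3 was found in the windows of Atoh8, Msx1 and Msx2, which says only that these letters are not in those windows.

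With TGFB, 6 of the 9 genes fell in both virus backgrounds: Id1, Id2, Id3, Id4, Atoh8 and Smad9. Atoh8 changed most, 10.1-fold lower with the control virus, and the Id genes fell 2.99-fold to 6.63-fold with the control virus. Smad6, Msx1 and Msx2 did not pass the test in either background, and 0 of the 9 were called higher. With a replicate block, which compares cultures of the same isolate, Msx2 was called higher in GFP_TGFB against GFP cultures (adjusted p 0.00494). That block called 4650 of all 15624 genes higher there. Msx2 was near the floor, at 1 to 28 counts a library, and its entry into the test leaned on cultures with TGFB. It was not called with DESeq2 or limma-voom. Without the block, 28.6% of all genes tested were called lower in GFP_TGFB against GFP cultures and 29% in Cre_TGFB against Cre cultures. Called higher were 26.6% and 27.5%. The median log2 fold change of the 9 genes was -1.58 with the GFP virus and -1.69 with the Cre virus, beside -0.02 and 0 over all genes. Calls are at an adjusted p under 0.05 by edgeR's quasi-likelihood test with Benjamini-Hochberg adjustment over all 15624 genes.

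Id3 was the most abundant of the 9, both in CPM and per kilobase of exon. It had 173, 160, 127 and 135 CPM in Cre_TGFB cultures and 177, 141, 131 and 149 CPM in GFP_TGFB cultures. Without TGFB it had 636, 474, 800 and 570 CPM in Hyal2, 640, 513, 719 and 513 CPM in Cre and 581, 487, 650 and 546 CPM in GFP cultures. Every library with TGFB lay below every library without it. The log2 fold change was -1.92 (SE 0.16, adjusted p 5.89e-09) in GFP_TGFB against GFP and -2.0 (SE 0.16, adjusted p 3.62e-09) in Cre_TGFB against Cre cultures.

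Id1 had 16.8, 20.8, 12.3 and 13.6 CPM in Cre_TGFB cultures and 16.5, 17.4, 15.4 and 14.9 CPM in GFP_TGFB cultures. Cultures without TGFB had 53.0, 41.4, 73.2 and 43.8 CPM in Hyal2, 52.3, 44.7, 64.5 and 43.0 CPM in Cre and 47.1, 40.6, 60.9 and 43.5 CPM in GFP cultures. The highest library with TGFB, at 20.8 CPM, lay below the lowest without it, at 40.6 CPM. It fell 2.99-fold in GFP_TGFB against GFP (adjusted p 9.24e-07) and 3.22-fold in Cre_TGFB against Cre cultures (adjusted p 3.97e-07).

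The isolates were close in Id2 with TGFB: it had 10.1, 10.4, 11.1 and 10.4 CPM in Cre_TGFB and 11.5, 10.6, 9.51 and 9.96 CPM in GFP_TGFB cultures. Without TGFB its isolates were spread, at 34.9, 32, 64.8 and 49.0 CPM in Hyal2, 37.7, 26.5, 59.6 and 47.3 CPM in Cre and 39.5, 26.1, 61.1 and 67.4 CPM in GFP cultures. The male isolates 3 and 4 were the higher pair in each group without TGFB. Id2 fell 4.66-fold in GFP_TGFB against GFP (adjusted p 1.65e-06) and 4.08-fold in Cre_TGFB against Cre cultures (adjusted p 4.36e-06).

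Id4 was scarce, with 8 to 28 counts a library with TGFB and 53 to 201 without it. It had 0.308, 0.607, 0.266 and 0.441 CPM in Cre_TGFB and 0.461, 0.277, 0.204 and 0.244 CPM in GFP_TGFB cultures. In cultures without TGFB there were 1.94, 1.33, 3.37 and 1.76 CPM in Hyal2, 1.91, 0.870, 2.94 and 1.73 CPM in Cre and 1.47, 0.710, 2.88 and 2.86 CPM in GFP cultures. The groups did not overlap, and isolate 2 was lowest in each group without TGFB. It fell 6.63-fold in GFP_TGFB against GFP (adjusted p 8.81e-05) and 4.65-fold in Cre_TGFB against Cre cultures (adjusted p 0.000378). The exons of Id4 overlap 2 genes on the opposite strand that had 0 to 2 counts a library.

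Atoh8 showed the widest gap of the 9. It had 9.69, 10.3, 6.21 and 7.39 CPM in Cre_TGFB and 8.16, 7.79, 5.97 and 6.79 CPM in GFP_TGFB cultures. Without TGFB it had 80.1, 64.3, 105 and 83.0 CPM in Hyal2, 76.3, 62.3, 93.7 and 79.2 CPM in Cre and 70.8, 53.9, 88.1 and 77.4 CPM in GFP cultures. Isolate 3 was highest without TGFB and lowest with it. Atoh8 fell 10.1-fold in GFP_TGFB against GFP (log2 fold change -3.33, SE 0.19, adjusted p 6.71e-11) and 9.25-fold in Cre_TGFB against Cre cultures (-3.21, SE 0.19, adjusted p 9.67e-11).

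Smad9 and Smad6 had smaller log2 fold changes than the Id genes and Atoh8. Smad9 had 1.90, 1.52, 1.73 and 1.53 CPM in Cre_TGFB and 1.44, 1.90, 1.43 and 1.73 CPM in GFP_TGFB cultures. Smad9 without TGFB stood at 2.63, 2.52, 4.68 and 3.39 CPM in Hyal2, 2.95, 1.60, 3.89 and 3.85 CPM in Cre and 2.62, 2.14, 3.72 and 3.89 CPM in GFP cultures. Cre_TGFB and Cre cultures overlapped through Cre isolate 2; GFP_TGFB lay below GFP throughout. Smad9 fell 1.88-fold in GFP_TGFB against GFP (adjusted p 0.00614) and 1.82-fold in Cre_TGFB against Cre cultures (adjusted p 0.00795). Without isolate 4 neither passed (adjusted p 0.0558 and 0.0913).

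Smad6 had 61.3, 53.1, 39.4 and 38.6 CPM in Cre_TGFB and 57.3, 43.9, 44.1 and 37.2 CPM in GFP_TGFB cultures. Without TGFB it had 70.9, 49.0, 121 and 84.0 CPM in Hyal2, 68.9, 45.3, 95.1 and 80.2 CPM in Cre and 62.8, 41.0, 90.6 and 80.2 CPM in GFP cultures. The male isolates 3 and 4 were lower with TGFB under both viruses, isolate 1 was lower by less and isolate 2 was higher, so the groups overlapped. The log2 fold change was -0.59 in GFP_TGFB against GFP (95% interval -1.16 to -0.02, adjusted p 0.0716) and -0.59 in Cre_TGFB against Cre cultures (adjusted p 0.0706). Without isolate 2 both passed (adjusted p 0.0107 and 0.00748), and so they did in fits over only the groups compared (0.0449 and 0.0393). Leaving out only GFP isolate 2 gave 0.0186, and leaving out only Cre_TGFB isolate 1 or Cre isolate 2 gave 0.0459 and 0.0224.

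Neither Msx gene passed the test of a TGFB change. Msx1 had 6.85 to 8.74 CPM in Cre_TGFB, 7.42 to 9.38 in GFP_TGFB, 6.64 to 10.2 in Hyal2, 7.76 to 9.99 in Cre and 6.99 to 9.17 in GFP cultures, so its groups overlapped throughout. Its log2 fold change was 0.00 in GFP_TGFB against GFP, with a 95% interval from -0.28 to 0.28, and -0.19 in Cre_TGFB against Cre cultures, with an interval from -0.47 to 0.09. Msx2 was near the floor, at 1 to 28 counts a library. It had 0.295, 0.390, 0.0738 and 0.181 CPM in Cre_TGFB and 0.379, 0.388, 0.281 and 0.0977 CPM in GFP_TGFB cultures. The groups without TGFB had 0.0492, 0.218, 0.0859 and 0.0679 CPM in Hyal2, 0.133, 0.286, 0.0965 and 0.125 CPM in Cre and 0.111, 0.201, 0.0225 and 0.0703 CPM in GFP cultures. Each isolate was higher in GFP_TGFB than in GFP cultures, while 3 of the 4 isolates were higher in Cre_TGFB than in Cre cultures. The log2 fold change of Msx2 in GFP_TGFB against GFP was 1.38 (SE 0.58, adjusted p 0.0515), and with the replicate block, which compares cultures of the same isolate, it was 1.45 and passed (adjusted p 0.00494). It also passed without isolate 2 (0.0288), without GFP_TGFB isolate 4 (0.0231) and without GFP isolate 2 (0.0172), and in Cre_TGFB against Cre cultures it was 0.48 (adjusted p 0.468). Msx2 did not pass in GFP_TGFB against GFP cultures with DESeq2, with limma-voom or without the filter on low counts. Of its 7 libraries at the filter's cutoff 5 had TGFB, so its entry into the test leaned on the cultures where it was higher.

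**Figure D1:**
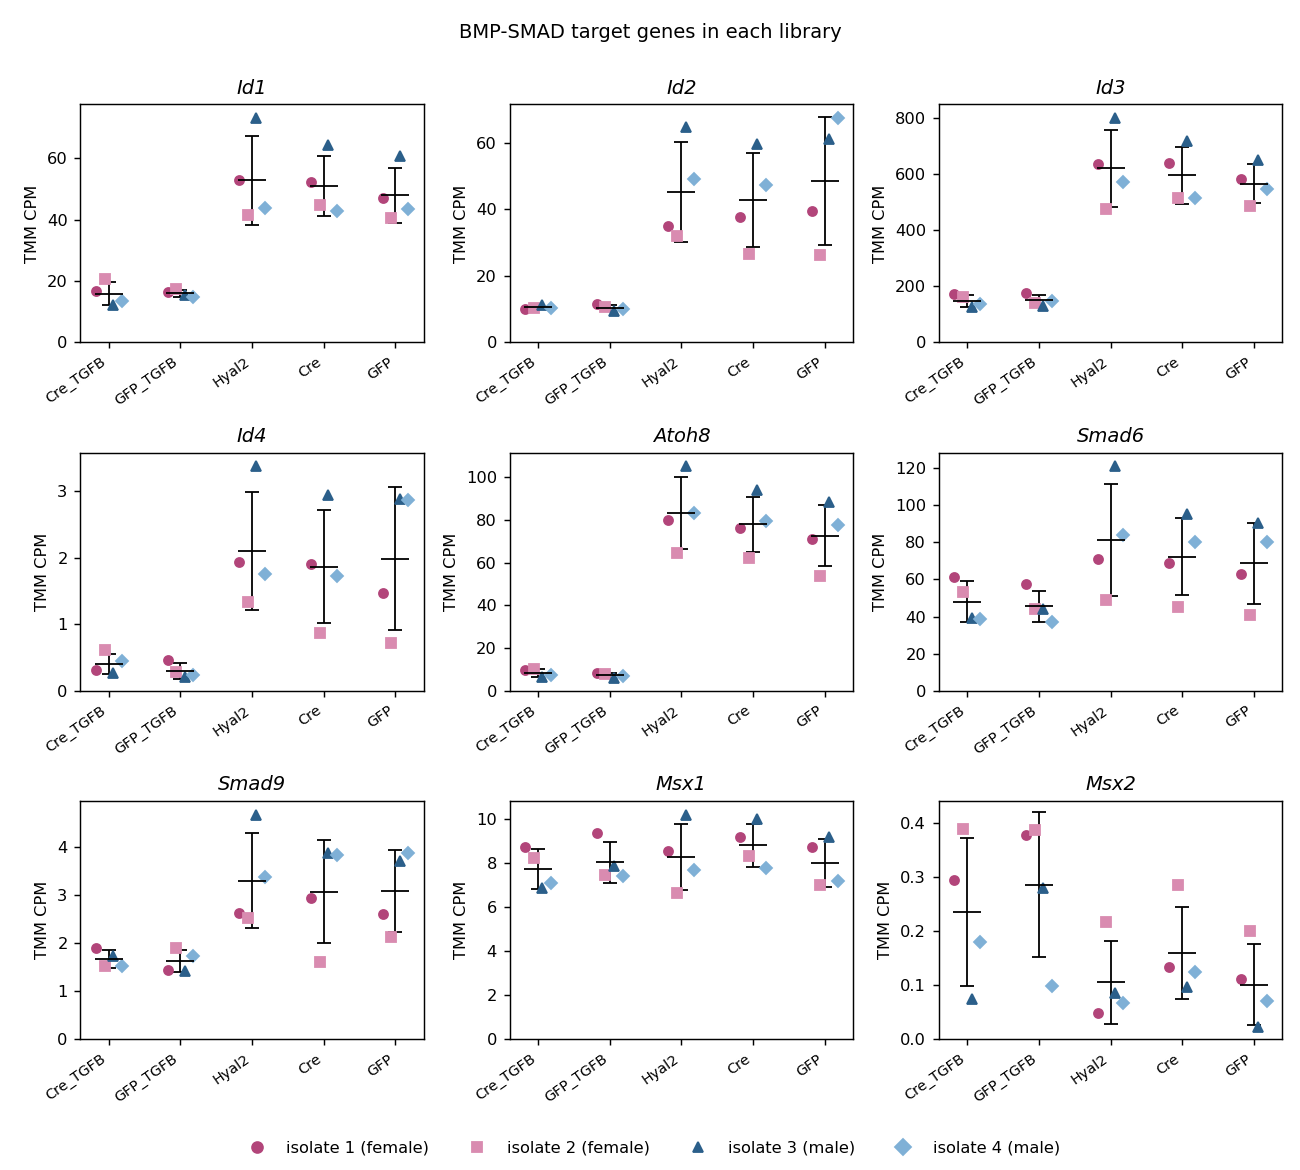
TMM-scaled CPM (vertical axes, each from 0) of the 9 genes in the 20 libraries, by group. Points are libraries, shaped by isolate and coloured by sex, and black bars give the mean and SD of 4 libraries; Id1, Id2, Id3, Id4 and Atoh8 lie lower in every library with TGFB, and the isolates of Smad6 spread from 41.0 to 121 CPM without TGFB.

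GFP_TGFB and GFP libraries did not overlap for 6 of the 9 genes, and Cre_TGFB and Cre libraries for 5, in each case lower with TGFB. Among all genes tested, 25.5% and 26.3% lay apart in that direction. Per kilobase of exon, the mean levels in GFP cultures were in the order Id3, Id1, Atoh8, Smad6 and Id2. Id3 had 83.4 CPM per kb in GFP_TGFB and 316 in GFP cultures, and Id1 had 13.8 in GFP_TGFB and 41.4 in GFP cultures. Atoh8 had 2.86 in GFP_TGFB and 28.9 in GFP cultures, Smad6 14.2 in GFP_TGFB and 21.4 in GFP cultures, and Id2 4.27 in GFP_TGFB and 19.9 in GFP cultures. In GFP cultures Id1, at 35 to 52.5, just overlapped Atoh8, at 21.5 to 35.2, and the ranges of Atoh8, Smad6 and Id2 overlapped. In GFP_TGFB cultures the order differed: Smad6 and Id1 were alike in range, at 11.6 to 17.9 and 12.9 to 15 CPM per kb, and Atoh8, at 2.38 to 3.25, stood below Id2, at 3.90 to 4.71. Msx1 was at 2.59 in both groups, and Smad9, Id4 and Msx2 stayed under 1 CPM per kb. Exon lengths came from an annotation of the older build and serve only to set genes side by side.

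In bulk RNA, fewer cells of a type and less RNA per cell cannot be told apart. Of the 7 fibroblast markers 5 were called lower and 1 higher in GFP_TGFB against GFP cultures, and as many in Cre_TGFB against Cre cultures. Of all genes tested, 28.6% were called lower and 26.6% higher in the first comparison, and 29% and 27.5% in the second. Pdgfra, a receptor gene of resident fibroblasts, averaged 153 ± 10.6 CPM in GFP_TGFB and 1020 ± 42.8 CPM in GFP cultures (SD, n = 4 each; log2 fold change -2.73, adjusted p 2.06e-15). The transcription factor gene Tcf21 averaged 26.5 CPM in GFP_TGFB and 131 CPM in GFP cultures (-2.31, adjusted p 7.38e-10), and the decorin gene Dcn 326 CPM in GFP_TGFB and 1340 CPM in GFP cultures (-2.03, adjusted p 5.63e-08). The marker that rose was Col1a1, a collagen I gene, at 19100 CPM in GFP_TGFB and 11000 CPM in GFP cultures (0.80, adjusted p 0.000257); these 4 were named after their values were seen. Markers of other cell types moved with TGFB as well. Of 10 endothelial markers 5 were called lower and 0 higher in GFP_TGFB against GFP cultures, and their summed level was 17.1 to 27.2 CPM in Cre_TGFB and 17.7 to 23.7 CPM in GFP_TGFB, against 38.2 to 40.3 in Hyal2, 40.3 to 45.0 in Cre and 39.8 to 43.7 CPM in GFP cultures; no marker of that list was at 0. Summed Schwann cell markers were at 4.77 to 6.95 CPM in Cre_TGFB and 3.98 to 5.90 in GFP_TGFB cultures, against 12.8 to 19.5 CPM in GFP cultures, with 2 of the 5 tested called lower in GFP_TGFB against GFP and Sox10 at 0 in all 4 Cre_TGFB libraries. Summed leukocyte markers were at 109 to 264 CPM in GFP_TGFB and 182 to 421 CPM in GFP cultures, with 5 of 8 called lower. Most of the leukocyte sum came from Lyz2, at a mean of 149 CPM in GFP_TGFB and 224 CPM in GFP cultures. With the replicate block all 8 leukocyte markers and 7 of 10 endothelial markers were called lower, the highest adjusted p of the leukocyte markers being 1.39e-05. That block called 5017 of all 15624 genes lower in GFP_TGFB against GFP cultures. Of 6 mural cell markers 2 were called higher and 2 lower, and their sum was 100 to 112 CPM in GFP_TGFB and 98.1 to 168 CPM in GFP cultures. That sum joins opposite shifts. Notch3 averaged 38.7 CPM in GFP_TGFB and 127 CPM in GFP cultures, and Cspg4 64.6 CPM in GFP_TGFB and 2.55 CPM in GFP cultures. The part of these shifts in the fall of the 9 genes was not tested.

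**Figure D2:**
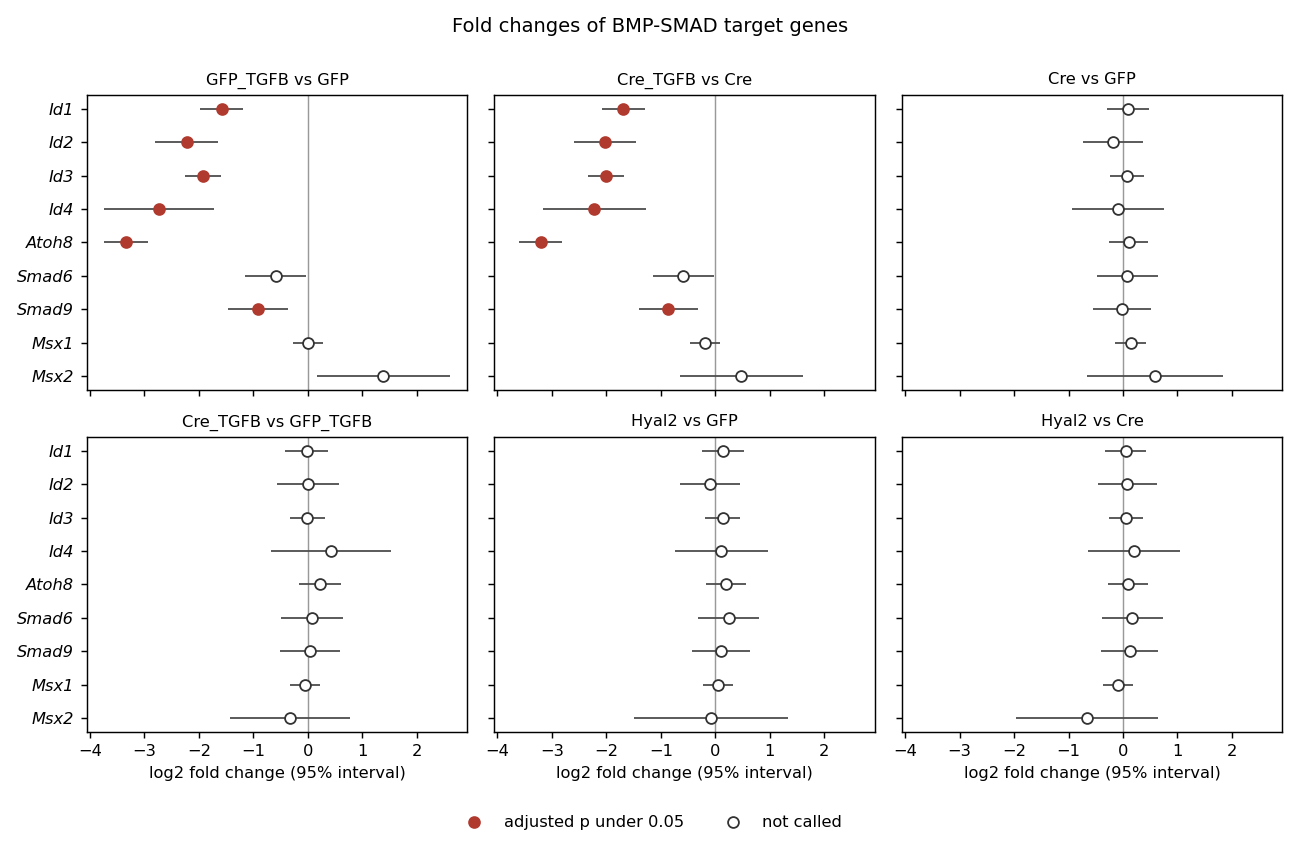
Log2 fold changes of the 9 genes (horizontal axes) with 95% intervals in 6 comparisons, each the named group over the group after vs. Filled points have an adjusted p under 0.05; 6 genes are filled in each of the 2 TGFB comparisons and 0 in the 4 Hyal2 comparisons.

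Deleting Hyal2 with or without TGFB, or overexpressing it without TGFB, gave no call among the 9 genes by edgeR, DESeq2 or limma-voom, and 0 of the 9 had an unadjusted edgeR p under 0.05 in any of the 4 comparisons. Each group overlapped its comparison group for all 9 genes, while 3.68% of all genes tested did not overlap in Cre against GFP, 1.57% in Cre_TGFB against GFP_TGFB, 1.25% in Hyal2 against GFP and 1.61% in Hyal2 against Cre cultures. In Cre against GFP cultures the log2 fold changes ran from -0.18 for Id2 to 0.58 for Msx2, with adjusted p of 0.931 to 1. The 95% intervals ran from -0.24 to 0.39 for Id3, -0.26 to 0.46 for Atoh8, -0.14 to 0.42 for Msx1 and -0.29 to 0.47 for Id1. They were wider for Smad9, from -0.54 to 0.52, Smad6, from -0.48 to 0.64, Id2, from -0.73 to 0.36, Id4, from -0.94 to 0.76, and Msx2, from -0.67 to 1.83. These and the intervals that follow come from fits without the replicate block, so they include the spread between isolates. Paired by isolate, the log2 differences ran from -0.42 to 0.17 for Smad9, 0 to 0.14 for Smad6 and -0.51 to 0.02 for Id2. Those of Id4 ran from -0.71 to 0.37 and those of Msx2 from 0.20 to 1.17. Hyal2 was the only gene of all 15624 that passed in Cre against GFP, in Cre_TGFB against GFP_TGFB and in Hyal2 against GFP cultures, which is 0.0064% of genes in each. With the replicate block 42 genes (0.269%) passed in Cre against GFP and 155 genes (0.992%) in Hyal2 against Cre cultures, and again 0 of the 9.

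In Cre_TGFB against GFP_TGFB cultures Atoh8 was higher in each of the 4 isolates, by 0.06 to 0.41 on the log2 scale, with a fitted value of 0.23 (95% interval -0.16 to 0.62, adjusted p 1). Id1, Id2 and Id3 were at -0.02, 0.01 and -0.01. In Cre against GFP cultures Atoh8, Msx1 and Msx2 were higher in each of the 4 isolates, with mean paired log2 differences of 0.11, 0.14 and 0.60. In Hyal2 against GFP cultures Id1, Atoh8 and Smad6 were higher in each of the 4 isolates, with fitted log2 fold changes of 0.14, 0.19 and 0.24 and an adjusted p of 1. In Hyal2 against Cre cultures, where Hyal2 and the chemokine gene Ccl5, named after its values were seen, made 0.0128% of genes, Smad6 differed by 0.17 (95% interval -0.39 to 0.73) and Id3 by 0.06 (-0.26 to 0.37). There Id4, Atoh8 and Smad6 were higher and Msx2 was lower in each of the 4 isolates. How many of all genes kept a single direction in all 4 isolates was not counted, so these directions are given as a description. The paired log2 differences behind them were as small as 0.01, for Id1 in Hyal2 against GFP cultures. The comparisons that use GFP cultures share those libraries. The TGFB response of the 9 genes was also set against the virus. The difference between the response in Cre cultures and that in GFP cultures was called for 0 of 15624 genes (0%), with 397 genes at an unadjusted p under 0.05, 0 of them among the 9. It was 0.12 for Atoh8 (95% interval -0.41 to 0.66), -0.08 for Id3 (-0.53 to 0.36), 0.19 for Id2 (-0.60 to 0.98) and -0.91 for Msx2 (-2.57 to 0.76).

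Isolates differed among themselves, and their order with TGFB differed from that without it. Among Id1, Id2, Id3, Id4, Atoh8, Smad6 and Smad9 in the 3 groups without TGFB, which make 21 combinations of gene and group, isolate 3 was highest in 19 and isolate 2 lowest in 19. In the 14 combinations with TGFB, isolate 1 was highest in 8, isolate 2 in 5, and isolate 3 lowest in 9. Marker levels differed between the same isolates. Without TGFB, the summed fibroblast markers were at 27200 to 29600 and 23800 to 24500 CPM in the female isolates 1 and 2, and at 32000 to 34200 and 30600 to 34000 CPM in the male isolates 3 and 4. Summed leukocyte markers were at 357 to 421 and 282 to 287 CPM in isolates 1 and 2, and at 237 to 248 and 156 to 182 CPM in isolates 3 and 4. Both sums thus lay apart between the sexes, leukocyte markers higher and fibroblast markers lower in the female isolates. Summed mural cell markers were at 124 to 146 and 98.1 to 110 CPM in isolates 1 and 2, and at 168 to 199 and 140 to 177 CPM in isolates 3 and 4. The endothelial sum overlapped across isolates, at 38.2 to 41.9 CPM in isolates 1 and 2 and 39.8 to 45.0 CPM in isolates 3 and 4. The part of these levels in the order of the isolates was not tested.

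The change with TGFB, taken within each isolate as log2 CPM with TGFB minus without and averaged over the GFP and Cre viruses, was further down in the male isolates. For Smad6 it was -0.15 and 0.16 in the female isolates and -1.15 and -1.08 in the male isolates. For Atoh8 it was -3.04 and -2.69 in the female isolates and -3.89 and -3.46 in the male isolates. For Id2 it was -1.84 and -1.32 in the female isolates and -2.55 and -2.47 in the male isolates. The sexes did not overlap for 8 of the 9 genes, Msx2 being the exception, and the female isolates were above the male ones in each of the 8; 28.2% of all genes tested lay apart in that direction. The sexes lay closer together for Id1, at -1.57 and -1.16 in female and -2.18 and -1.60 in male isolates, for Id3, at -1.80 and -1.74 in female and -2.41 and -1.90 in male isolates, and for Msx1, at 0.01 and 0.04 in female and -0.38 and -0.04 in male isolates. Id4 had -2.05 and -0.87 in female and -3.45 and -2.62 in male isolates, and Smad9 had -0.74 and -0.12 in female and -1.26 and -1.23 in male isolates.

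In a fit with a mean for each group and sex, the female minus male difference in the TGFB change was called for 3 of the 9 genes and for 8.79% of all genes tested. It was 0.91 for Id2 (SE 0.19, adjusted p 0.0108), 0.81 for Atoh8 (SE 0.16, adjusted p 0.00765) and 1.10 for Smad6 (SE 0.25, adjusted p 0.0181). In that fit Smad6 fell by 1.12 on the log2 scale in male isolates (adjusted p 8.93e-05) and had a log2 fold change of -0.02 in female isolates (95% interval -0.40 to 0.37). The difference was 1.58 for Id4 (adjusted p 0.0871), 0.81 for Smad9 (0.0654), 0.55 for Id1 (0.179), 0.40 for Id3 (0.234), 0.25 for Msx1 (0.430) and -0.05 for Msx2 (0.972). With the replicate block Id4 and Smad9 also passed (adjusted p 0.0302 and 0.0269), and without Cre isolate 1 they were at 0.0294 and 0.00697. Id4 passed without GFP isolate 1 (0.0461), and Smad6 did not pass without GFP isolate 3 (0.0515). Within the GFP virus alone, where 1.38% of all genes passed, none of the 9 did (adjusted p 0.0535 for Id2, 0.125 for Atoh8, 0.163 for Smad6), nor within the Cre virus alone, where 0.128% passed (0.278, 0.104 and 0.167), though the difference in these 3 genes was above 0 under each virus. The GFP and Cre cultures of an isolate are not independent, so these p-values over libraries are too small. With 2 isolates of each sex, sex and isolate cannot be told apart, and an exact two-sided permutation test over isolates cannot go below 0.333, the value it gave for each of the 8 genes. The leukocyte sum separated the sexes with TGFB too, at 257 to 264 and 202 to 205 CPM in the female isolates and 135 to 139 and 102 to 109 CPM in the male isolates. Endothelial markers, which did not separate them without TGFB, were at 20.7 to 21.4 and 23.7 to 27.2 CPM in the female isolates with TGFB and 17.1 to 17.7 and 17.7 to 18.2 CPM in the male isolates. The fibroblast sum, which separated the sexes without TGFB, overlapped with it. It was at 31100 to 35000 CPM in the female and 34600 to 38200 CPM in the male isolates. The low mesothelial and cardiomyocyte sums lay apart with TGFB, higher in the female isolates, and the mural and Schwann cell sums overlapped. The part of these marker levels in the difference between the sexes was not tested.

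**Figure D3:**
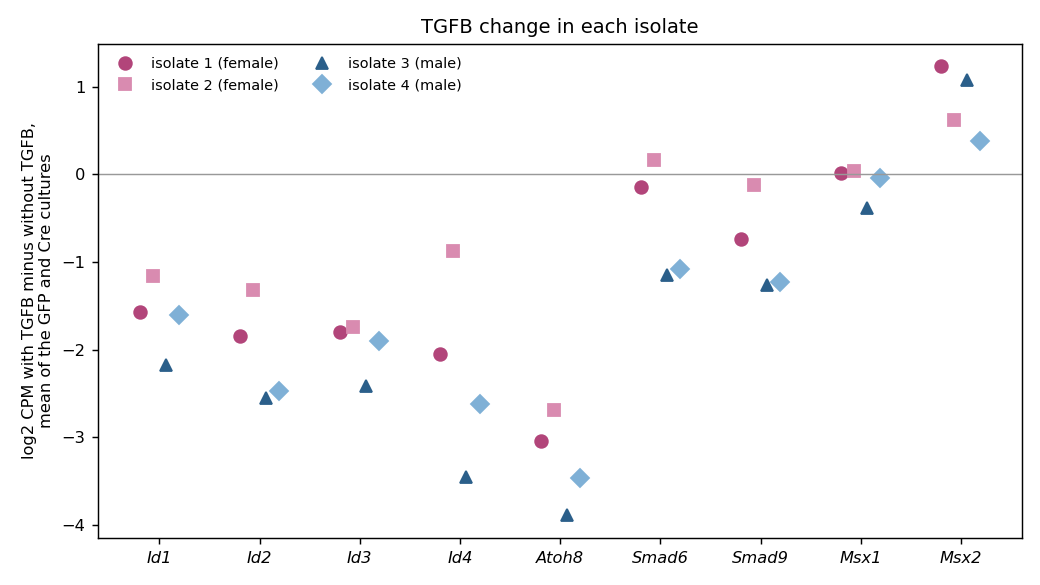
Change with TGFB of each of the 9 genes in each isolate, as log2 CPM with TGFB minus log2 CPM without it (vertical axis), averaged over the GFP and Cre cultures. Female isolates (pink) lie above male isolates (blue) for 8 of the genes; Smad6 is at -0.15 and 0.16 in female and -1.15 and -1.08 in male isolates.

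Within groups, most of the 9 genes varied together in the cultures without TGFB. With group means taken out, Pearson r of log2 CPM over the 12 libraries without TGFB was 0.99 for Atoh8 and Smad6, 0.96 for Id1 and Id3, 0.96 for Id2 and Smad6, and 0.95 for Id3 and Msx1. Over the 8 libraries with TGFB the same pairs stood at 0.77, 0.63, 0.18 and 0.91. Smad9, at 0.93 with Smad6 without TGFB, was at -0.06 with it. Msx2 went against the others without TGFB, from -0.84 with Atoh8 to -0.59 with Id1 and Msx1. There Msx2 had only 1 to 24 counts a library, and isolate 2 was its highest in each group. With TGFB its sign was the other way for 7 of the 8 genes. It was at 0.78 with Atoh8, 0.82 with Id1, 0.77 with Smad6 and 0.69 with Msx1, but at 0.04 with Id2 and -0.18 with Smad9. All these libraries come from the same 4 isolates, so the points are not independent, and r is given as a description. Over all 20 libraries and genes with a mean of at least 5 CPM, the gene most like Atoh8 was Fbln1 (r = 0.98), that most like Smad6 was Pdk2 (0.97), that most like Id2 was Gab1 (0.96), and that most like Id3 was Rarres2 (0.95). For Id1 it was Dexi (0.93), for Id4 Slc22a17 (0.89), for Smad9 Sesn1 (0.94), for Msx1 Pheta1 (0.95) and for Msx2 Adarb1 (0.85). Id3 itself was among the 3 genes most like Msx1 (0.94).

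**Figure D4:**
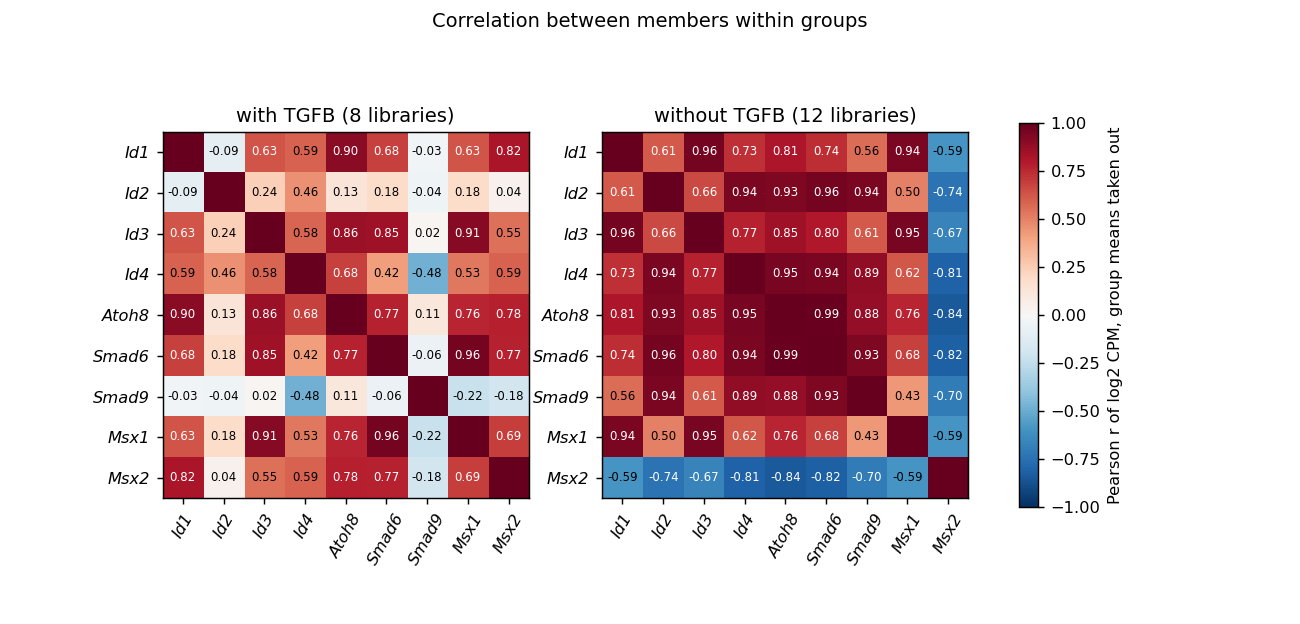
Pearson r of log2 CPM between the 9 genes after group means were taken out, over the 8 libraries with TGFB (left) and the 12 without (right), from -1 in blue to 1 in red. The block of high values without TGFB, such as 0.99 for Atoh8 and Smad6, is looser with TGFB for Id2 and Smad9.

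Other genes of the pathway changed with TGFB at several levels. Of 10 BMP ligands 7 were tested in GFP_TGFB against GFP cultures, where 4 fell and 1 rose, among 55.3% of all genes called in either direction. Bmp6 averaged 30.1 ± 4.69 CPM in GFP_TGFB and 79.0 ± 13.3 CPM in GFP cultures (SD, n = 4 each), a log2 fold change of -1.39. Bmp4, a ligand made by many mesenchymal cells, averaged 5.44 ± 0.926 CPM in GFP_TGFB and 21.2 ± 7.13 CPM in GFP cultures (-1.96). Bmp3 was at the floor in GFP_TGFB cultures, at a mean of 0.0343 CPM, against a mean of 0.683 CPM in GFP cultures. The ligand gene that rose was Gdf6, named after its values were seen, which averaged 459 ± 46.3 CPM in GFP_TGFB and 279 ± 93.8 CPM in GFP cultures (log2 fold change 0.72, adjusted p 0.0255) and did not pass in Cre_TGFB against Cre cultures (0.60, adjusted p 0.0571). Of 11 receptors and co-receptors, 4 fell and 3 rose, and with the replicate block, which called 9667 of all 15624 genes, 5 fell and 4 rose. Acvrl1, the type I receptor ALK1, fell by 1.48, Tgfbr3, the co-receptor betaglycan, by 2.97, and the co-receptor gene Rgma by 2.03 on the log2 scale.

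In GFP_TGFB against GFP cultures, where 55.3% of all genes were called, 4 of 9 SMADs and intracellular regulators rose and 2 fell. Smurf2 and Smurf1, ubiquitin ligases that act on SMADs and receptors, rose by 1.36 and 0.94 on the log2 scale, and Smad7, an inhibitory SMAD, by 0.46. All 9 secreted antagonists that were tested, of 12, passed: 5 rose and 4 fell. Among them Fst, encoding follistatin, had a log2 fold change of 1.23, while Bmper and Chrd, which encodes chordin, fell by 1.05 and 1.5. Of 11 other genes listed as BMP-SMAD targets 9 were tested, of which 2 fell and 1 rose: Tbx2 fell by 0.76, Tmem100 by 1.61 at under 1 CPM, and the homeobox gene Dlx2 rose by 1.43. The median over that list was 0, beside -1.58 for the 9 genes. Of the 3 E protein genes, Tcf4 and Tcf3 fell by 0.88 and 0.29, and Tcf12 did not pass (adjusted p 0.977). The 6 TGF-beta target genes all rose, Tagln by 2.26, Acta2 by 2.10 and Pmepa1 by 1.10. In Cre_TGFB against Cre cultures, where 56.5% of genes were called, the counts were 4 ligands lower and 0 higher, 4 receptors lower and 3 higher, 1 intracellular regulator lower and 4 higher, 4 antagonists lower and 4 higher, and 1 other target lower and 2 higher. There Tmem100 did not pass (adjusted p 0.375). With the replicate block 1 ligand was called higher, 5 antagonists higher and 2 intracellular regulators lower in that comparison. The block called 9942 of all 15624 genes there.

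**Figure D5:**
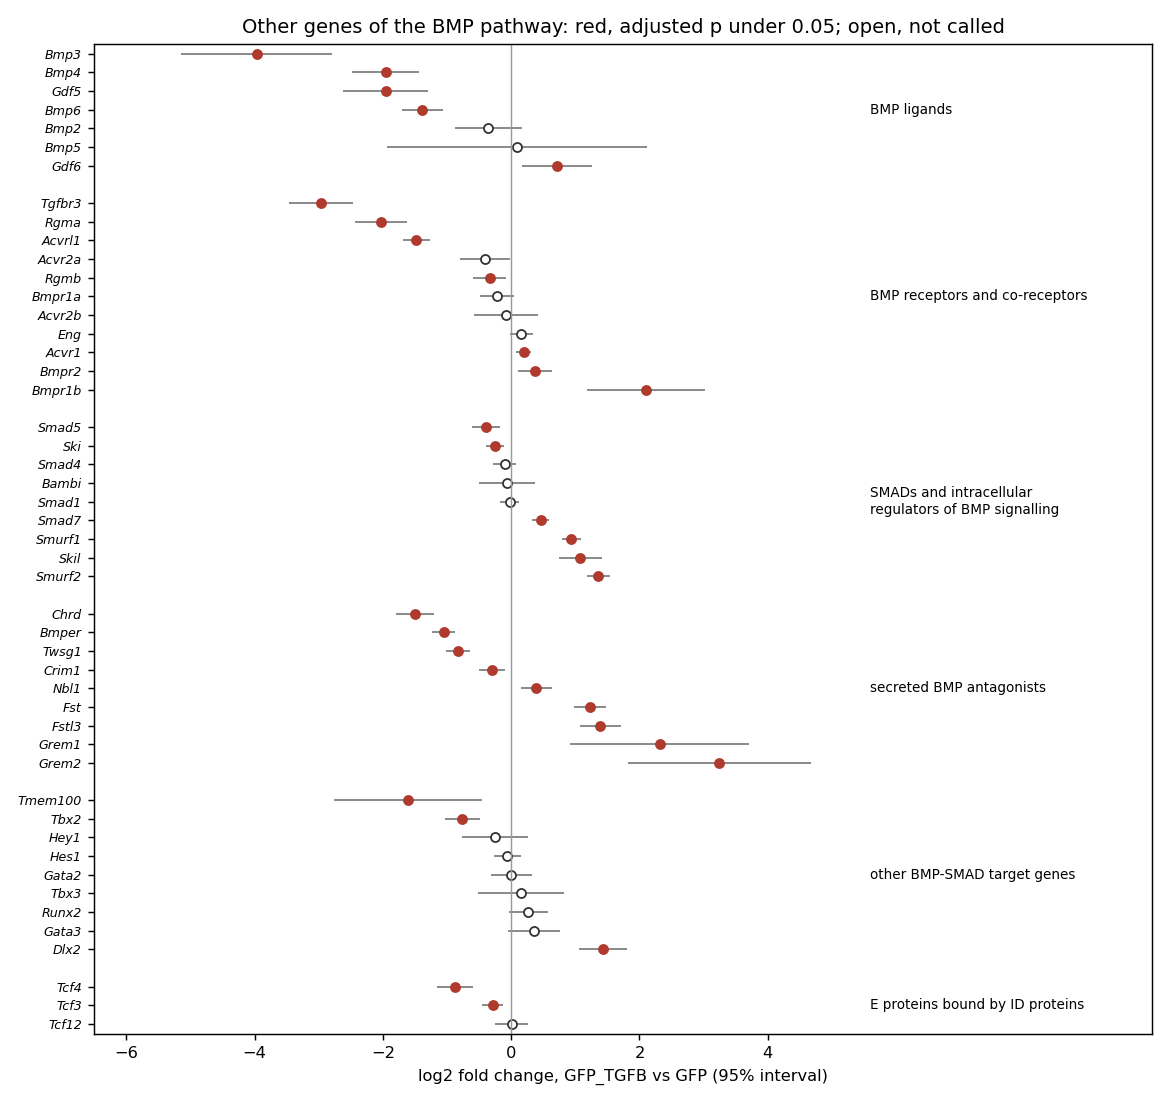
Log2 fold changes in GFP_TGFB against GFP cultures (horizontal axis) with 95% intervals for the tested genes of 6 lists, sorted within each list. Filled red points have an adjusted p under 0.05; secreted antagonists split into 5 higher and 4 lower, and 4 of 7 ligands are lower.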

How the data were processed

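RNA-seq was made from total RNA extracted with Trizol and treated with DNase, with NEBNext Ultra II libraries, per the labels' protocols. FastQC 0.10.1, HTSeq 0.10.0 and the build GRCm39 (mm39) are named in the submitters' processing notes; neither they nor the labels give the aligner, annotation release or strand setting. The authors deposited whole-number read counts for each Ensembl gene without normalising them; 0 columns were left unmapped. Symbols came from the identifiers through an annotation of GRCm38, in which 52081 of 55414 matched. The 9 genes and all lists were chosen with earlier results of these data known.

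All 20 libraries entered a single model of group means (edgeR 4.0.16 in R 4.3.3, TMM, robust quasi-likelihood F test, Benjamini-Hochberg over 15624 genes, threshold 0.05). Genes needed at least 10 counts, at the median library size, in 4 libraries and 15 in all. Log2 CPM used a prior count of 2. The code was tested on simulated data. Alternatives were DESeq2 1.42.0, limma-voom 3.58.1, RLE and upper quartile scaling, no filter, a minimum count of 50, only the groups compared, a replicate block and leaving out libraries. Named genes were the 9, Hyal2, the 3 with the smallest p of each pathway list and the genes most like each of the 9, of which the closest is printed. Replicate numbers were taken to pair libraries because the library names in the labels' descriptions share a prefix per number; over the 40 pairs of same-numbered libraries the deviations from group means had correlations of 0.11 to 0.71. No 2 replicates agreed within sampling noise (chi-square per degree of freedom at least 8.82 over 30 pairs). Whether isolates came from single or pooled hearts is not stated in the labels.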

Additional observations from a re-analysis of the deposited data

Results flagged for a closer look

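The change with TGFB differed between female and male isolates, female minus male on the log2 scale, by 0.908 for Id2, 0.806 for Atoh8 and 1.10 for Smad6, each called when each group was split by sex (edgeR, adjusted p 0.0108, 0.00765 and 0.0181). For each of these genes both female isolates lay above both male isolates. Over all genes tested, 8.79% were called for this difference, and 28.2% had both female isolates above both male isolates. None of these genes passed within the GFP virus alone or the Cre virus alone. With 2 isolates of each sex, sex and isolate cannot be told apart. An exact two-sided permutation test over isolates gave 0.333 for each of these genes, the smallest value it can reach. The GFP and Cre cultures of an isolate share that isolate, so the p-values over libraries are too small. These were the differences called among 63 examined between sexes or between viruses. No library stood apart from the other 3 of its group in any of 45 combinations of gene and group.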

How the results depend on the processing

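Of 1527 values of the 9 genes under the alternatives, 1502 stayed on their side of the threshold, 3 lost the call, 22 gained it and 0 changed a called direction; 132 that were never called changed sign. The count of the 9 genes called for the difference in TGFB change between the sexes was 3, against 5 with the replicate block, 5 with DESeq2 and 7 without the filter on low counts, and 2 to 5 when single libraries were left out, where the lone library of a group and sex is assumed to vary like the other groups. The replicate block, which uses the pairing by isolate, called Msx2 in GFP_TGFB against GFP (log2 fold change 1.449) and otherwise changed no call of the 9 genes outside the sex comparison. Over all genes the block moved the calls to 42 from 1 in Cre against GFP, to 155 from 2 in Hyal2 against Cre and to 2430 from 1373 in the sex comparison. In the sex comparison DESeq2 called 1985 of 15624 genes, and the fit without a filter 1923 of 31062. DESeq2 called 37 genes in Cre against GFP and 111 in Hyal2 against Cre, limma-voom called 0 and the fit without a filter 5 in Cre against GFP, and none of these were among the 9. With only the groups compared, 2 genes were called in Cre against GFP, 2 in Cre_TGFB against GFP_TGFB (2 also with DESeq2) and 1 in Hyal2 against Cre. Leaving out single libraries or isolates gave 0 to 2 genes in Cre against GFP and 1 to 128 in Hyal2 against Cre. The causes were not tested. Depth limits Msx2, at 1 to 28 counts, which was not tested with a minimum count of 50 or in some fits of only the groups compared, and Id4. No scaling moved the median of all genes by over 0.1.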
